A study of Mus musculus with 8 samples.

Results

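The genes of glycolysis and of the tricarboxylic acid cycle were followed in the kidney of Pus1 homozygous mutant mice and of wild-type mice. Pus1 encodes pseudouridine synthase 1. The enzyme converts uridine to pseudouridine in transfer RNAs of the cytosol and of mitochondria. The set held 39 genes chosen by name, 21 for glycolysis with lactate dehydrogenase and 18 for the tricarboxylic acid cycle with the pyruvate dehydrogenase complex. A gene was measured where one of its probes lay well above background in at least 4 of the 8 samples, and it was represented by its brightest such probe. This held for 38 of the 39 genes, among 22122 items (genes, or transcripts without a symbol) and 14284 named genes that passed the same filter. The missing gene was Hk3, hexokinase 3, whose 1 probe was well above background in 0 of the 8 samples.

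There were 4 mice labelled homozygous mutant PUS1 and 4 labelled wild type PUS1, all 14 to 16 weeks old and from C57BL/6J stock backcrossed for 5 generations, and none had a treatment. Replicates 1 and 2 of each genotype were female and replicates 3 and 4 male. RNA of a frozen cross section of the whole kidney was hybridised to 4 dual-colour Agilent arrays, each of which held 1 mutant and 1 wild-type mouse of 1 sex and 1 replicate number. On arrays 1 and 3 the mutant was labelled with Cy5, and on arrays 2 and 4 with Cy3. A cross section mixes all cell types of the organ, so fewer cells of a type and less RNA per cell cannot be told apart.

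Glycolysis splits glucose into pyruvate in the cytosol: the preparatory steps spend ATP on phosphorylating the sugar, and the pay-off steps return ATP and NADH. Pyruvate is reduced to lactate by lactate dehydrogenase, or enters mitochondria, where the pyruvate dehydrogenase complex turns it into acetyl-CoA for the tricarboxylic acid cycle. The cycle oxidises acetyl-CoA and feeds electrons to the respiratory chain. In the kidney the proximal tubule relies mainly on mitochondrial oxidation and makes glucose, whereas distal segments and the medulla carry out more glycolysis.

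The mutated gene was lower in every mutant sample, but its probe was still well above background in all 4 of them. The protein was not measured. Pus1 had a normalized log2 intensity of 10.39, 10.34, 10.003 and 10.34 in the wild-type mice and of 7.46, 7.49, 6.92 and 7.36 in the mutants, a log2 ratio of -2.96 ± 0.075 (SE, limma, adjusted p = 0.00041, 4 arrays). Correlations between samples over all items ranged from 0.955 to 0.995. The levels of Eif2s3y, a Y-linked gene, were 6.63 to 6.75 in the samples labelled female and 11.61 to 11.87 in those labelled male. Of the proximal tubule markers 8 of 9 were measured, and of the thick ascending limb markers 7 of 7. Markers of fat and of urothelium, tissues that lie outside the kidney's own parenchyma, differed widely between samples. The mean log2 level of the 10 measured fat markers of 11 ran from 9.92 to 13.91 in wild-type samples and from 11.04 to 13.16 in mutants, and that of 7 urothelium markers of 7 from 7.47 to 10.33 and from 8.14 to 9.53. The lowest sample for both lists was wild-type replicate 3.

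The promoters of the genes on which the comparisons below turn are shown first, read from the RefSeq promoter table of build GRCm38.p6 as the 250 bases before and the 50 bases after the annotated start, 5′ to 3′. Capitals mark ACGTG or its reverse complement CACGT, a form of the core letters of the site bound by hypoxia-inducible factor, a regulator of glycolysis genes. The form GCGTG was neither marked nor counted, so a window without a match can still hold that form.
Pgk1 (chrX:106186850-106187149, plus strand): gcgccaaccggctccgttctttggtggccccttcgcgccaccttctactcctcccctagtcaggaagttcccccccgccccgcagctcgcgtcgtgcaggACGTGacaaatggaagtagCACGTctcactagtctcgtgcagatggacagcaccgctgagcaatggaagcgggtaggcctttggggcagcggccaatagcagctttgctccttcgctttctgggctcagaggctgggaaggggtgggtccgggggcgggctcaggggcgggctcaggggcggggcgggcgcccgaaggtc
Hk2 (chr6:82774405-82774704, minus strand): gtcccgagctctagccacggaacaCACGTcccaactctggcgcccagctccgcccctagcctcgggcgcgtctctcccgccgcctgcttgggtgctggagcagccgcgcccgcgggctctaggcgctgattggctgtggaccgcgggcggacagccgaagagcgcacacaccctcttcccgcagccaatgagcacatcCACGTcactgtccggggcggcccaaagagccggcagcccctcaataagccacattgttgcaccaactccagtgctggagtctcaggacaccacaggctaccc
Eno3 (chr11:70656926-70657225, plus strand): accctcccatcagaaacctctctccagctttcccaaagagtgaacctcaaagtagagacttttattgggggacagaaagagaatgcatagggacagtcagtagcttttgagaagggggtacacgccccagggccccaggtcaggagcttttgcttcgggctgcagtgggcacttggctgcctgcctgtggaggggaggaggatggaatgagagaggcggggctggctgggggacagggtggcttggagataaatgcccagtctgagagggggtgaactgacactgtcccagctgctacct
Ldha (chr7:46845554-46845853, plus strand): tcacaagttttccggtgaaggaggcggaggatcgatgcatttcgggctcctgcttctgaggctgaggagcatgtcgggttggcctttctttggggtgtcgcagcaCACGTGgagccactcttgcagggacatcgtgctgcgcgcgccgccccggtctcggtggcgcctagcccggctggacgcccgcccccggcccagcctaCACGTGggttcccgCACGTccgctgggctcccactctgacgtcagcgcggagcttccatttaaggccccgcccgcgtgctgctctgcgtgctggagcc
The Pgk1 and Hk2 windows held 2 matches each, the Eno3 window 0 and this Ldha window 5, which is the first of 2 windows listed for Ldha. In the Ldha window each run CACGTG counts once on each strand. Of the 39 genes, 38 were found in the table, and Idh3a was not matched. At least 1 match stood in the windows of 11 of 21 glycolysis genes and of 4 of 17 cycle genes, against 21.8% of 27025 genes. A gene can have more than 1 window, which gives it more places to match. Counted by window, 22 of the 56 windows of these 38 genes held a match (39.3%), against 19.6% of all 32851 windows. GGGCGG, the core letters of the Sp1 site, or its reverse complement was found for 12 of 21 and 12 of 17 genes, against 38.2% of all genes. CCAAT or its reverse complement was found for 10 of 21 and 10 of 17, against 41.1%. Each match describes letters in a window and is not a measured binding site.

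The genotype comparison asked whether the energy genes differed between mutant and wild-type kidney. No member of either pathway passed the threshold: 0 of 38 had an adjusted p below 0.05 (limma on the 4 log2 ratios, Benjamini-Hochberg over all items), where 0.0271% of all items did, 0.00904% higher and 0.0181% lower. Most members had ratios slightly above 0. The ratio of mutant to wild type was above 0 for 31 of 38 members, 17 of 20 in glycolysis and 14 of 18 in the cycle, against 48.0% of all items. The median log2 ratio was 0.09 for the glycolysis genes and 0.14 for the cycle genes. The SD of the medians of the 4 arrays was 0.045 for glycolysis and 0.095 for the cycle. The median standard error of a single item was 0.081, which does not measure the spread of a median over genes. Over all items the median ratio was -0.0045. An unadjusted p below 0.05 was reached by 5 members, all higher in mutants, namely Tpi1, Pgk1, Pkm, Idh3b and Sucla2, where 4.46% of all items passed that rule, 2.59% higher and 1.88% lower. Members share the same 4 arrays, so they are not independent of each other.

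Among the preparatory steps, 9 of 9 measured genes had ratios above 0, from 0.0060 to 0.24. Tpi1, triosephosphate isomerase, which interconverts the 2 trioses that aldolase forms, had levels of 15.44, 15.24, 15.79 and 15.50 in the wild-type mice, listed here and below by replicate from 1 to 4, and of 15.51, 15.61, 15.71 and 15.87 in mutants. The genotypes overlapped, and the ratio was 0.18 ± 0.072 (SE; adjusted p = 0.980). Pfkp, the platelet-type phosphofructokinase, which catalyses the committed step, had wild-type levels of 9.58, 9.72, 9.75 and 10.35 and mutant levels of 9.84, 10.14, 10.10 and 10.26. Its ratio of 0.23 ± 0.10 was above 0 on arrays 1 to 3 and -0.09 on array 4. Its other kept probe gave 0.088. Aldoc, aldolase C, had wild-type levels of 13.33, 13.52, 12.42 and 13.30 and mutant levels of 13.53, 13.43, 13.10 and 13.46. Its ratio of 0.24 ± 0.10 rested mainly on replicate 3, whose wild-type sample was the lowest of the 8 and whose ratio was 0.68. Pfkl, the liver-type phosphofructokinase, had ratios of -0.45, 0.51, 0.07 and 0.78 on arrays 1 to 4, and the fitted value was 0.23 ± 0.11. Hk1, the housekeeping hexokinase, Gpi1, glucose-6-phosphate isomerase, Pfkm, the muscle-type phosphofructokinase, and Aldoa, aldolase A, had ratios of 0.0060, 0.05, 0.08 and 0.07.

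Pgk1 was the one member whose mutant and wild-type samples did not overlap, where 0.398% of all items were separated with mutants higher and 0.258% with mutants lower. It encodes phosphoglycerate kinase 1, which makes the first ATP of the pay-off steps. Its levels were 14.98, 15.04, 15.07 and 14.92 in wild-type mice and 15.38, 15.20, 15.17 and 15.22 in mutants. Every mutant sample was above every wild-type sample, and the 4 array ratios were 0.40, 0.17, 0.10 and 0.30. The fitted ratio was 0.24 ± 0.084, a fold of 1.18 (limma, adjusted p = 0.980). Leaving out each replicate in turn gave ratios from 0.17 to 0.32. Pkm, pyruvate kinase of muscle and many other tissues, had wild-type levels of 14.05, 13.72, 13.41 and 13.54 and mutant levels of 13.82, 14.14, 13.52 and 14.20. Its ratios of -0.23 and 0.11 with the mutant in Cy5 were smaller than the 0.42 and 0.67 with the mutant in Cy3, and the fit gave 0.24 ± 0.092. Pklr, the pyruvate kinase of liver and red cells, had wild-type levels of 7.79, 7.35, 7.10 and 6.97 and mutant levels of 7.78, 7.58, 7.27 and 7.24, a ratio of 0.17 ± 0.074.

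Of the other pay-off genes, Eno1, enolase 1, was higher in the mutant on all 4 arrays, by 0.08 to 0.18, while the other two enolases had ratios below 0: -0.08 for Eno2 and -0.15 for Eno3. Pgam2, the muscle-type phosphoglycerate mutase, was the third glycolysis gene below 0, at -0.07. Gapdh, glyceraldehyde-3-phosphate dehydrogenase, and Pgam1, the common phosphoglycerate mutase, had ratios of 0.06 and 0.09. Ldha and Ldhb, the subunits of lactate dehydrogenase, had ratios of 0.09 ± 0.073 and 0.08 ± 0.086. The 3 kept Ldha probes gave genotype ratios from 0.04 to 0.20.

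All 4 genes of the pyruvate dehydrogenase complex had ratios above 0. Dld, dihydrolipoamide dehydrogenase, which serves this complex and the 2-oxoglutarate dehydrogenase complex of the cycle, had wild-type levels of 12.97, 13.002, 12.77 and 12.79 and mutant levels of 13.35, 13.23, 12.82 and 12.96. The mutant was the higher mouse on each array, while the genotypes overlapped between the sexes, and the ratio was 0.20 ± 0.085 (adjusted p = 0.980). Dlat, the dihydrolipoamide acetyltransferase, was also higher on each array, by 0.06 to 0.26. Pdha1 and Pdhb, the subunits of the decarboxylating enzyme, had ratios of 0.12 ± 0.10 and 0.16 ± 0.082, each with at least 1 array below 0.

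In the mitochondrial cycle 9 of 12 genes had ratios above 0. Idh3b, the beta subunit of the NAD-dependent isocitrate dehydrogenase, had the smallest unadjusted p of the members. Its wild-type levels were 13.26, 13.02, 13.27 and 13.18 and its mutant levels 13.42, 13.63, 13.18 and 13.58. Replicate 3 went the other way, at -0.09, and the fitted ratio was 0.27 ± 0.083. Its partner subunits Idh3a and Idh3g had ratios of -0.02 and 0.04. Sucla2, the ATP-forming succinyl-CoA synthetase subunit, had wild-type levels of 14.05, 14.26, 13.70 and 13.95 and mutant levels of 14.56, 14.15, 14.00 and 14.17, with the mutant lower on array 2 alone and a ratio of 0.23 ± 0.088. Suclg1, the subunit shared by both forms of that enzyme, had wild-type levels of 14.31, 14.01, 14.01 and 13.79 and mutant levels of 14.42, 14.43, 13.84 and 14.10. Its ratio was 0.17 ± 0.081, below 0 on array 3. Fh1, fumarate hydratase, had wild-type levels of 14.44, 14.60, 14.35 and 14.28 and mutant levels of 14.76, 14.70, 14.36 and 14.50. It was higher in the mutant on each array, by 0.0095 to 0.33, and the ratio was 0.16 ± 0.084. Dlst, the succinyltransferase of the 2-oxoglutarate dehydrogenase complex, was higher on each array as well, by 0.06 to 0.20, whereas Ogdh, the decarboxylase of that complex, had a ratio of -0.0085. Cs, citrate synthase, lay at -0.01, Suclg2, the GTP-forming subunit, at 0.14, Idh2, the NADP-dependent isocitrate dehydrogenase of mitochondria, at 0.19, and Mdh2, malate dehydrogenase of mitochondria, at 0.14. Mdh2 lies on chromosome 5, as Pus1 does, with starts at bases 135778649 and 110773667, and an effect of linkage was not tested. Of the cytosolic counterparts, Mdh1 had wild-type levels of 16.09, 16.52, 15.94 and 16.18, mutant levels of 16.64, 16.51, 16.18 and 16.12 and a ratio of 0.18 ± 0.082, and Idh1 a ratio of -0.03.

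**Figure D1:**
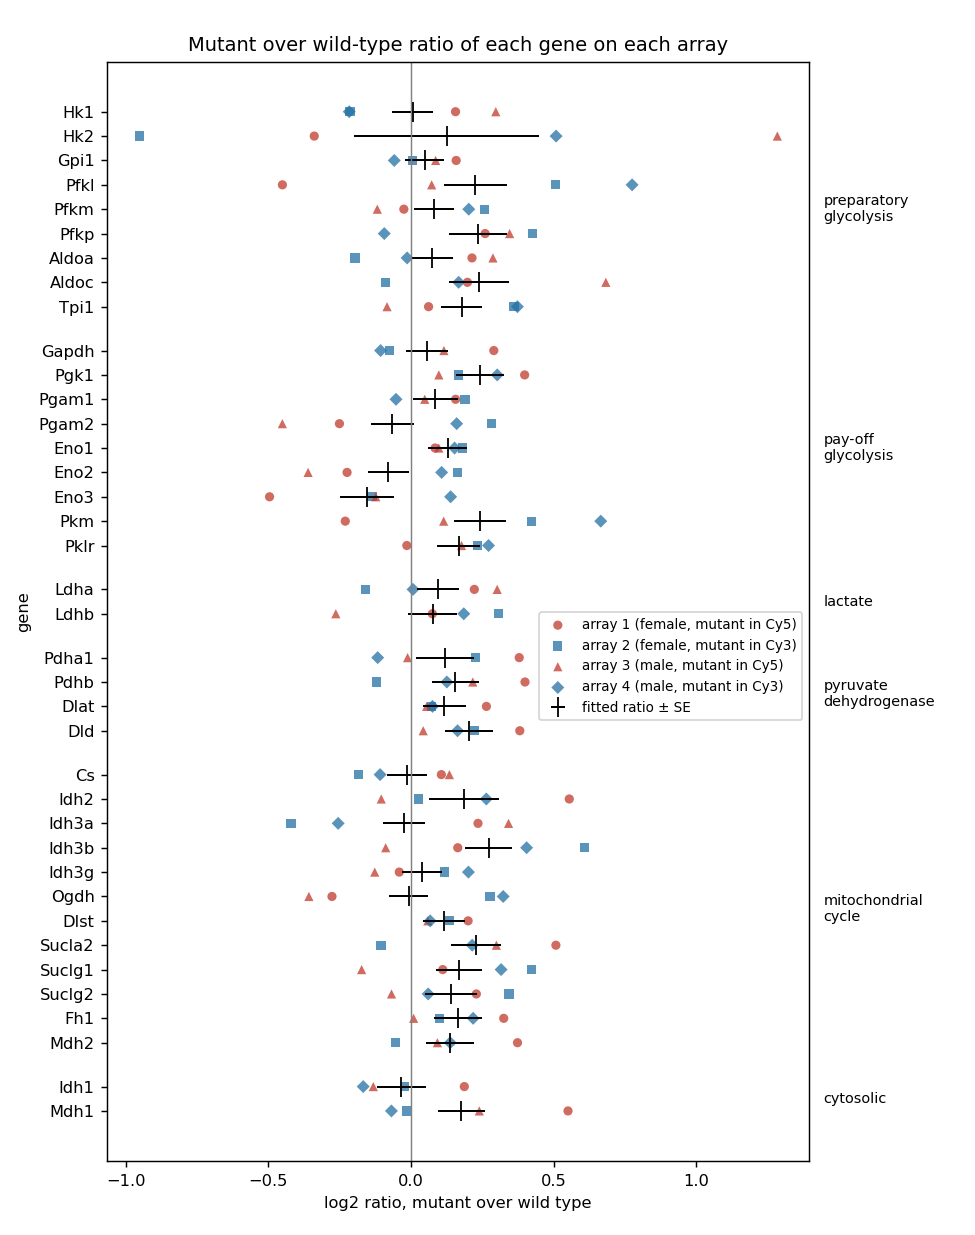
Each row is 1 of the 38 measured genes by its role and the horizontal axis is the log2 ratio of mutant over wild type, with 1 point per array (4 arrays; red, mutant in Cy5; blue, mutant in Cy3) and a black bar for the fitted ratio ± SE. Most bars lie within 0.25 of 0, Hk2 spreads from -0.95 to 1.28, with both of these points resting on a sample not well above background, and for genes such as Ogdh and Idh3a the red and blue points fall on opposite sides of 0.

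For 11 of the 38 members the ratio had 1 sign on both arrays with the mutant in Cy5 and the other sign on both arrays with the mutant in Cy3, a smaller share than the 34.3% of all items that did the same. They were Hk1, Pfkm, Aldoa, Gapdh, Pgam2, Eno2, Cs, Idh3a, Idh3g, Ogdh and Mdh1. The ratios of Ogdh were -0.28, 0.28, -0.36 and 0.32 on arrays 1 to 4, a fitted dye effect of -0.31, larger in size than the fitted genotype ratio of any member. Over all items the ratios of arrays that share the dye orientation correlated by 0.14 (arrays 1 and 3) and 0.35 (arrays 2 and 4), and those of the 4 pairs of arrays with opposite orientation by -0.40 to -0.21. Since each sex held both orientations, the dye cancels in the fitted ratios. Against that, 6 members were higher in the mutant on all 4 arrays and 0 lower: Pgk1, Eno1, Dlat, Dld, Dlst and Fh1. Of all items 4.24% were higher and 3.91% lower on all 4 arrays.

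Intervals bounded the size of the differences. The 95% interval of the fitted ratio lay within 1.5-fold in either direction for 37 of the 38 members, and the widest bounds among them were 0.764-fold and 1.41-fold. The exception was Hk2, whose interval ran from 0.630-fold to 1.89-fold.

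The contrast of the pathways changed with the array. The median ratio of the glycolysis genes was 0.08, 0.17, 0.10 and 0.16 on arrays 1 to 4, and that of the cycle genes 0.25, 0.09, 0.03 and 0.13. Without replicate 1 the medians over arrays were 0.10 for glycolysis and 0.067 for the cycle, the reverse of the order over all 4 arrays, and without replicate 3 the cycle median was 0.21. The cycle median was 0.17 higher than the glycolysis median on array 1 and 0.09, 0.07 and 0.02 lower on arrays 2, 3 and 4. Both medians were above 0 on each array, while that of all items ran from -0.02 to 0.02. Of the marker lists, those of the distal convoluted tubule and of macrophages were also above 0 on each array, with medians of 0.59, 0.23, 0.10 and 0.39 over 5 of 5 measured markers and of 0.05, 0.28, 0.42 and 0.36 over 3 of 4. Thick ascending limb markers had medians of 0.58, 0.21, 0.20 and -0.12, fat markers of -1.58, -1.85, 1.96 and 0.55, and urothelium markers of -1.90, -1.59, 1.62 and -0.11. The part of these cell types in the ratios of the pathway genes was not tested.

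**Figure D2:**
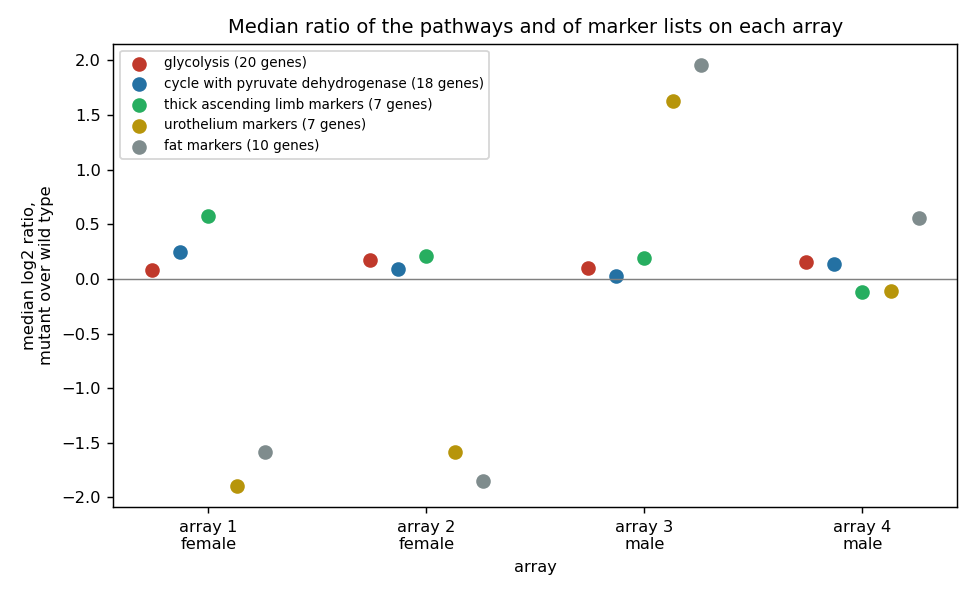
The horizontal axis gives the 4 arrays with the sex of their mice and the vertical axis the median log2 ratio of mutant over wild type of 5 gene lists, with 1 point per list and array and no error bar. Both pathway medians stay between 0.03 and 0.25, while the fat markers move from -1.85 to 1.96.

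The difference of the genotype ratio between the sexes was called for 1 member, Hk2, where 0.140% of all items were called. At an unadjusted p below 0.05 it was again 1 member, beside 3.82% of all items. Hexokinase 2 is the isoform of muscle, heart and fat. Its levels were 7.88, 8.03, 6.56 and 7.67 in the wild-type mice and 7.54, 7.08, 7.84 and 8.18 in mutants, so the mutant was the lower mouse in both female pairs and the higher one in both male pairs. Wild-type replicate 3 and mutant replicate 2, the 2 lowest samples, were not well above background, so Hk2 was measured in 3 of 4 samples of each genotype. The array ratios were -0.34, -0.95, 1.28 and 0.51. Those of arrays 2 and 3 each use a sample that was not well above background, so their sizes are not measured and depend on the offset. At an offset of 50 the male ratio exceeded the female ratio by 1.54 ± 0.18 (SE; limma, adjusted p = 0.049), which is thus not a measured size. This standard error leaves out any gap between the pairs of a sex that both sexes share, because the pairs of a sex have opposite dyes and the dye term absorbs it. The call was lost with a normexp offset of 16 (2.02, adjusted p = 0.13) and with Agilent's processed signals (3.43, adjusted p = 0.86), and Hk2 was not tested where all 8 samples had to be above background. The fat markers moved with Hk2: their mean log2 level was 13.91, 12.80, 9.92 and 12.51 in wild-type mice and 12.34, 11.04, 12.77 and 13.16 in mutants, lowest in the same 2 samples. Of the fat markers Lep alone was not measured, and 6 of the other 10 were called in the same comparison. The urothelium markers had their lowest mean log2 levels in these samples too, 7.47 and 8.14, and 7 of 7 had an unadjusted p below 0.05, with 0 called. Of 8 skeletal muscle markers 4 were measured, of which Myl1 was called (1.95, adjusted p = 0.030, above background in 4 of 8 samples), and of 4 smooth muscle markers Cnn1 was called (1.90, adjusted p = 0.032). The part of fat, urothelium and muscle in the Hk2 values was not tested.

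No other member was called in this comparison. Of the glycolysis genes, Pfkl had a difference of 0.40 ± 0.18 between the sexes, Aldoc of 0.37 ± 0.18, Eno3 of 0.32 ± 0.18, Pkm of 0.29 ± 0.18 and Ldhb of -0.23 ± 0.18. Of the cycle genes, Pdha1 had a difference of -0.37 ± 0.17, Suclg2 of -0.29 ± 0.17, Idh1 of -0.23 ± 0.18, Idh3b of -0.23 ± 0.17, Dld of -0.20 ± 0.18 and Suclg1 of -0.20 ± 0.18. Each of these had an adjusted p of 0.9998 (limma). The median difference was -0.04 for the glycolysis genes and -0.10 for the cycle genes, against 0.009 for all items, and the median standard error over all items was 0.181.

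**Figure D3:**
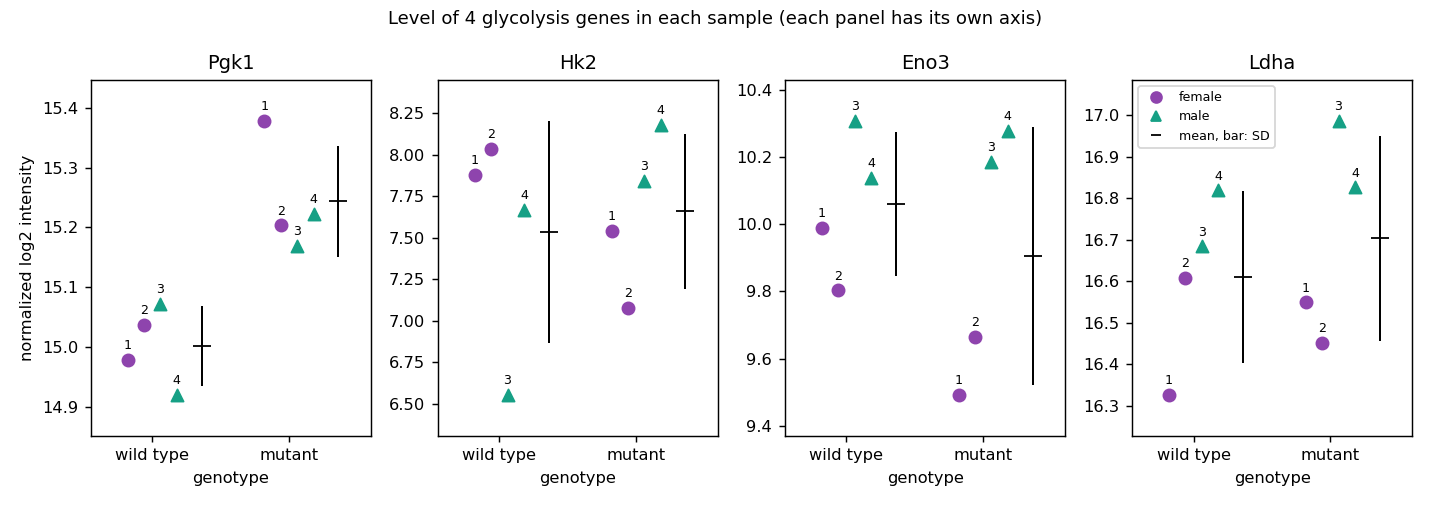
Each panel gives 1 gene, with genotype on the horizontal axis and normalized log2 intensity on the vertical axis. Points are the 8 samples, numbered by replicate (circles, female; triangles, male), and the bar is the mean ± SD of 4 samples. The Pgk1 groups do not overlap by genotype, Eno3 and Ldha separate by sex, and Hk2 is lowest in wild-type replicate 3 and mutant replicate 2.

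Between male and female mice 14 of 38 members were called, 3 higher and 11 lower in males (limma on 4 array means), where 43.8% of all items were called, 18.0% higher and 25.8% lower. The members' count is thus near the background. Sex and slide position cannot be told apart, because females lay at positions 1 and 2 and males at positions 3 and 4. The count rests on few arrays: it was 0, 1, 3 and 12 without replicates 1, 2, 3 and 4, each of which leaves 1 array in a sex. The median difference of male minus female was -0.15 for glycolysis and -0.10 for the cycle, against -0.10 over all items. Without between-array normalization the medians were -0.34 and -0.33, against -0.15 over all items.

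The 3 members higher in males were glycolysis genes. Eno3, the muscle-type enolase, had female levels of 9.99 and 9.80 in wild-type and 9.49 and 9.67 in mutant mice, and male levels of 10.31 and 10.14 in wild-type and 10.18 and 10.28 in mutant mice. No male sample overlapped the females, and the difference was 0.49 ± 0.074, a fold of 1.40 (adjusted p = 0.0082). Ldha, the lactate dehydrogenase subunit that predominates in muscle, had female levels of 16.33 and 16.61 in wild-type and 16.55 and 16.45 in mutant mice, and male levels of 16.68 and 16.82 in wild-type and 16.99 and 16.83 in mutant mice. All males were above all females, by 0.35 ± 0.079 in the mean, and its 3 kept probes gave 0.34 to 0.50. Without between-array normalization the Ldha difference was 0.09. Tpi1, with the wild-type mice of each sex listed before the mutants here and below, had female levels of 15.44, 15.24, 15.51 and 15.61 and male levels of 15.79, 15.50, 15.71 and 15.87, which overlapped. Its difference of 0.27 ± 0.078 was -0.04 on its other kept probe, and -0.0051 without between-array normalization.

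Among the preparatory genes lower in males, Aldoa had female levels of 17.55, 17.68, 17.77 and 17.48 and male levels of 17.05, 17.34, 17.34 and 17.32, with no overlap. The difference was -0.36 ± 0.088 (adjusted p = 0.028). Pfkm was lower by less, at -0.26 ± 0.079 (adjusted p = 0.047). Pfkp was not called, and its 2 kept probes gave 0.29 and -0.48.

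In the pay-off steps Pgam2, Pgam1 and Pklr were lower in males. Pgam1 had female levels of 15.29, 15.36, 15.45 and 15.55 and male levels of 15.03, 15.12, 15.08 and 15.07, a separation with a difference of -0.34 ± 0.079. Pklr had female levels of 7.79, 7.35, 7.78 and 7.58 and male levels of 7.10, 6.97, 7.27 and 7.24, also without overlap. Its difference of -0.48 ± 0.13, a fold of 0.716, was the most negative of the members. Pgam2 had female levels of 14.00, 13.72, 13.75 and 14.01 and male levels of 13.76, 13.39, 13.31 and 13.55, so wild-type replicate 3 reached into the female range, and the difference was -0.37 ± 0.076 (adjusted p = 0.018). Gapdh separated the sexes, at 18.20 to 18.51 in females and 17.88 to 18.12 in males, but missed the threshold with -0.30 ± 0.092 (adjusted p = 0.050, just above it). Eno3 and Pgam2, both muscle-type isoforms, thus went in opposite directions.

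In the cycle 0 members were higher and 6 lower in males. Dld had female levels of 12.97, 13.002, 13.35 and 13.23 and male levels of 12.77, 12.79, 12.82 and 12.96, which did not overlap, with a difference of -0.30 ± 0.079 (adjusted p = 0.033). Idh1, the cytosolic NADP-dependent isocitrate dehydrogenase, had female levels of 11.98, 12.16, 12.17 and 12.14 and male levels of 11.93, 11.87, 11.79 and 11.70, likewise apart, with -0.29 ± 0.081. The remaining 4 overlapped between the sexes. Suclg1 lay at 14.01 to 14.43 in females and 13.79 to 14.10 in males, a difference of -0.36 ± 0.086. Mdh1, the cytosolic malate dehydrogenase, lay at 16.09 to 16.64 and 15.94 to 16.18, a difference of -0.33 ± 0.092. Idh2 and Fh1 differed by -0.29 ± 0.084 and -0.26 ± 0.076, both close to the threshold (adjusted p = 0.045 and 0.046). Dlst ran the other way, at 13.94 to 14.17 in females and 14.19 to 14.30 in males with no overlap. It missed the threshold, at 0.21 ± 0.077 (adjusted p = 0.081), and was -0.03 without between-array normalization. In all, 3 members were separated with males higher and 6 with males lower, where 18.0% and 25.0% of all items were.

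Cs and Mdh2 differed by 0.0021 ± 0.093 and 0.0013 ± 0.085 between the sexes, the 2 smallest differences of the members. Markers of other cell types also moved with sex. Of the 8 measured proximal tubule markers 5 were called lower and 2 higher in males, with a median difference of -0.36. The 2 higher ones were Slc22a6, at 1.24, and Slc7a13, which was well above background in 4 of 8 samples, at 14.26 to 14.90 in males and 6.62 to 6.95 in females. The mean log2 level of the 8 markers, 14.08 to 14.25 in females and 14.87 to 15.09 in males, thus runs against most of the list. Of 5 distal convoluted tubule markers 3 were called, all lower in males, with a median difference of -0.29. Their mean log2 levels were 10.80 to 11.25 in females and 10.40 to 10.72 in males. By the same rule 43.8% of all items were called, 18.0% higher and 25.8% lower. Podocyte (2 of 4 measured), intercalated cell (2 of 4), macrophage (2 of 3) and erythroid markers (3 of 5) were also called only lower in males. Thick ascending limb markers had 1 called higher and 2 lower of 7. Fat and urothelium markers had 0 called of 10 and of 7. The part of these cell types in the sex differences of the pathway genes was not tested.

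**Figure D4:**
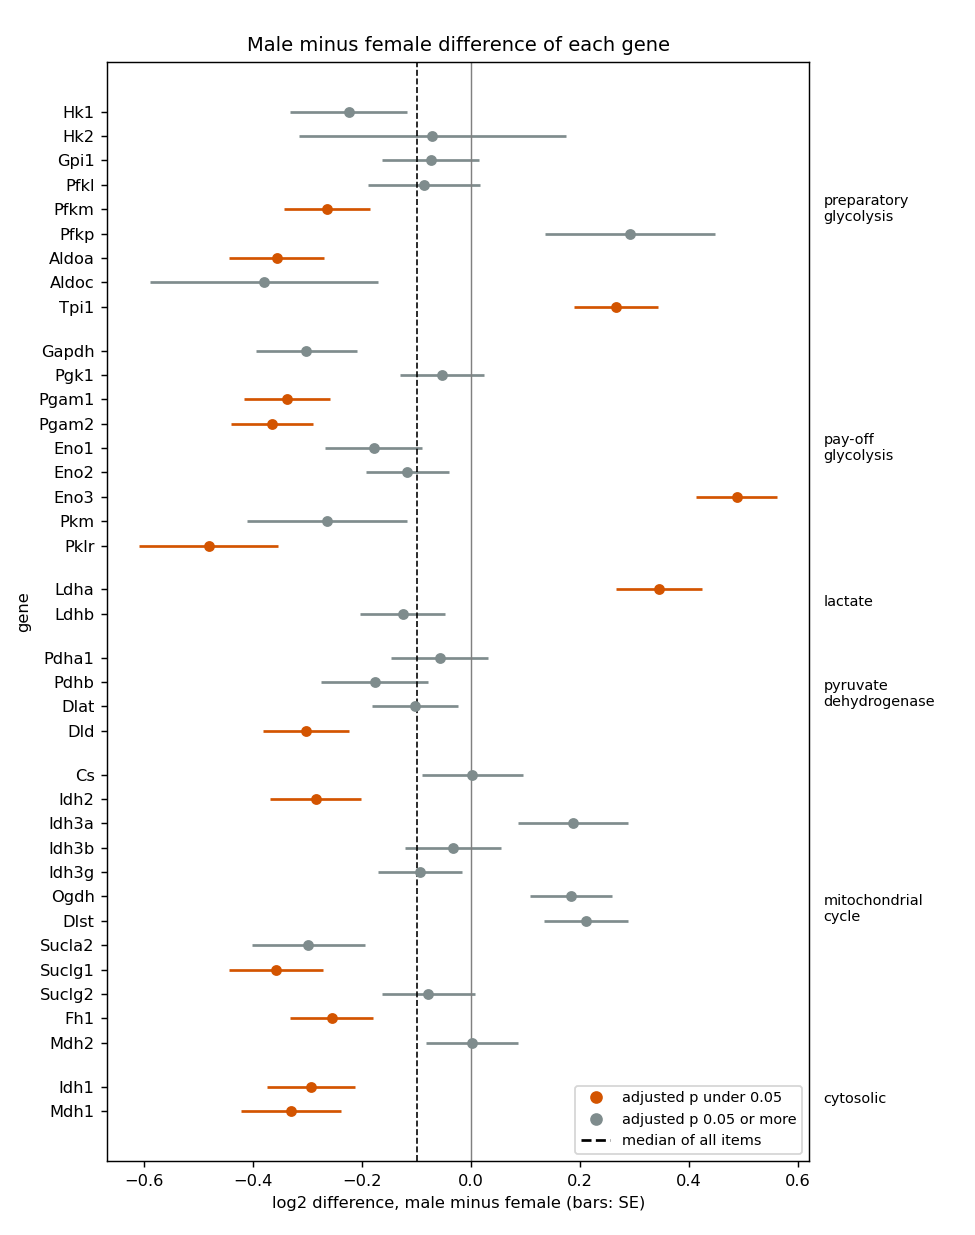
Each row is 1 of the 38 measured genes and the horizontal axis is the log2 difference of male minus female with its SE (2 female and 2 male arrays). Orange points have an adjusted p below 0.05, and the dashed line is the median of all items, -0.10. Eno3, Ldha and Tpi1 are orange to the right of 0, and 11 genes are orange to its left.

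Other genes of the pathways, from a list of transporters, regulators and side branches, gave a frame for the members. On the glycolysis side 24 of 26 were measured, all but Gapdhs and Ldhc, and on the cycle side 30 of 32, all but Pdpr and Ogdhl. For genotype 0 of these 54 were called, where 0.0271% of all items were. The ratio was above 0 for 15 of 24 on the glycolysis side, with a median of 0.01. On the cycle side it was above 0 for 28 of 30, with a median of 0.10. Of all items 48.0% were above 0, with a median of -0.0045. Like the members, these genes share the same arrays, so they are not independent of each other. Pdk3, a kinase that inhibits the pyruvate dehydrogenase complex, had levels of 10.34 to 10.55 in the wild-type mice and of 10.62 to 10.99 in the mutants. The genotypes did not overlap, and the ratio was 0.29 ± 0.080 (adjusted p = 0.980). Slc25a12, a mitochondrial aspartate-glutamate carrier of the malate-aspartate shuttle, had wild-type levels of 11.53, 11.66, 11.81 and 11.70 and mutant levels of 11.99, 11.83, 11.95 and 12.13. It was separated too, with a ratio of 0.30 ± 0.091. D2hgdh, D-2-hydroxyglutarate dehydrogenase, was the third that did not overlap, at 0.14 ± 0.069 (limma, adjusted p = 0.980). Of all items 0.398% were separated with mutants higher and 0.258% with mutants lower. Slc25a13, the second aspartate-glutamate carrier, had 0.25 ± 0.081, and Mpc1, a subunit of the mitochondrial pyruvate carrier, 0.23 ± 0.085. On the glycolysis side Fbp2, the muscle-type fructose-1,6-bisphosphatase, had array ratios of 0.26, 0.25, 0.14 and 0.26, a fitted value of 0.23 ± 0.070. Slc16a7, a monocarboxylate transporter, had 0.17 ± 0.072, Tigar, which lowers fructose-2,6-bisphosphate, 0.16 ± 0.082, and Bpgm, bisphosphoglycerate mutase, -0.14 ± 0.072.

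Between the sexes some of the other genes held larger differences than any member did. Slc16a7 had levels of 9.38, 9.73, 9.81 and 9.54 in females and 12.05, 12.02, 12.60 and 11.89 in males. No samples overlapped, and the difference was 2.52 ± 0.14, a fold of 5.75 (adjusted p = 0.00073). Ldhd, the mitochondrial D-lactate dehydrogenase, was at 14.30, 14.41, 14.18 and 14.74 in females and 15.92, 15.58, 15.91 and 15.53 in males, a difference of 1.33 ± 0.17. Fbp2 was lower in males, at 9.65, 9.59, 9.91 and 9.84 in females and 8.67, 8.61, 8.81 and 8.87 in males, a difference of -1.01 ± 0.076. Slc2a1, the glucose transporter GLUT1, differed by -0.64 ± 0.11. On the cycle side Me1, the cytosolic malic enzyme, was higher in males by 0.82 ± 0.097 and Pdp2, a phosphatase that activates the pyruvate dehydrogenase complex, by 0.39 ± 0.075. Glud1, glutamate dehydrogenase, and Me3, a mitochondrial malic enzyme, differed by -0.55 ± 0.081 and -0.53 ± 0.085. In all, 3 of 24 were called higher and 5 lower on the glycolysis side, and 2 of 30 higher and 8 lower on the cycle side, by the rule that called 18.0% and 25.8% of all items.

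In the sex by genotype comparison 0 of the 54 were called. Pfkfb3, which makes the phosphofructokinase activator fructose-2,6-bisphosphate, had levels of 11.79, 11.60, 10.45 and 11.50 in wild-type mice and 11.12, 10.79, 11.52 and 11.54 in mutants. Wild-type replicate 3 and mutant replicate 2 were its lowest samples, as for Hk2 and the fat markers, and the difference was 1.29 (adjusted p = 0.28). Pfkfb1, the liver-type form of that enzyme, differed by 0.84, Slc16a3, a lactate exporter, by 0.93, and G6pc, glucose-6-phosphatase, by 0.87, with adjusted p from 0.42 to 0.75. Pdk4, a starvation-induced pyruvate dehydrogenase kinase, had array ratios of -1.25, -0.28, 1.74 and -0.11, a difference of 1.58 that rested on replicates 1 and 3. Acly, ATP-citrate lyase, Slc25a1, the mitochondrial citrate carrier, and Pdhx, a structural subunit of the pyruvate dehydrogenase complex, differed by 0.77, 0.43 and -0.21.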

How the data were processed

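The authors deposited intensity values as median spot signals with local background in 2 channels, which Agilent Feature Extraction 10.7.3.1 wrote, per the file headers. The authors also deposited a table of log2 values. Each probe is centred there on its median over the samples, its column medians run from -0.02 to 0.02, its array ratios correlate by 0.996 to 0.998 with those of the processed signals, while how arrays were normalized to each other stays unknown (not given in the sources used here). It served as an alternative only. The files hold median and not mean spot signals, so the median was used.

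Background was corrected by normexp with an offset of 50 and ratios by loess within arrays (limma 3.58.1, R 4.3.3), with control and outlier spots left out, and levels were scaled between arrays by Aquantile. Spots were averaged per probe, and probes named by accession through the RefSeq gene table of GRCm38.p6. Tests covered 22122 items. Between 26919 and 30529 probes per sample lay well above background, and 4 arrays limit the precision.

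Genotype was fitted with limma on the 4 ratios with a dye term. Sex was fitted on the mean of both channels of each array, and sex by genotype on the ratios with a dye term. These fits had 2, 2 and 1 residual degrees of freedom, and p values are two-sided. The labels do not say more of the replicates than separate individuals. The pairing comes from the shared array. Same-numbered samples deviated together by 0.680 to 0.782, but each pair is of 1 sex. Within sexes the correlation was -0.27 in females and 0.07 in males. The scripts were tested on simulated data, drawn with the fitted spread of each item and with known shifts. At a log2 size of 0.25 the genotype fit called 2 of 50 shifted items and the sex fit 0 of 50. At 0.5 they called 31 and 10 of 50, and at 1 they called 50 and 48. Of the items without a shift, 17 and 19 were called. Differences as small as most member ratios are thus seldom called.

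The members, marker lists and named genes were chosen with earlier results of these data known. Full values are given for members past the threshold (at most 12, by smallest p), otherwise for the 6 of each pathway with the largest moderated t, for members whose groups did not overlap, and for 4 other genes of each side. Alternatives were another offset, processed signals, median centring, other filters, the mean over probes, no dye term, no block, a separate-channel fit, no between-array normalization and each replicate left out. Figures were drawn with matplotlib 3.10.9.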

Additional observations from a re-analysis of the deposited data

Results flagged for a closer look

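Of 76 groups of 4 samples (38 genes in 2 genotypes), 4 had 1 sample apart from the other three by Dixon's criterion, and chance alone gives about 1 in 20 groups. Hk1 was at 13.48 in wild-type replicate 3, where the group's median was 13.95, and at 14.11 in mutant replicate 1, where it was 13.79. Gpi1 was at 16.80 in mutant replicate 1 beside a median of 16.59. Idh3g was at 15.59 in mutant replicate 3 beside a median of 15.75. Wild-type replicate 3 was also the sample with the lowest fat and urothelium marker levels. The Hk2 ratio of mutant to wild type differed between the sexes by 1.54 on the log2 scale, a size that is not measured, since 2 of its 4 array ratios use a sample not well above background.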

How the results depend on the processing

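In the genotype comparison 0 members were called under each alternative run, and the 12 named members kept the sign of their ratio. These 12 were picked for their large t in the same arrays, so their constant sign is not separate evidence of a direction. The signs of the other members were not followed. The 6 items called overall became 0 with Agilent's processed signals and with the authors' deposited log2 table, 10 with median centring, and 1 to 3 with a replicate left out. Without the replicate block of the array 5 were called, 3 of them shared, and again 0 members. The glycolysis median was 0.044 with median centring, which also moved the median of all items to -0.03. The cycle median of 0.14 ran from 0.067 to 0.21 with a replicate left out, and without replicate 1 it lay below that of glycolysis (0.10). In the sex comparison the 9681 items called became 2543 to 8552 with a replicate left out. The 14 members became 9 with processed signals, 3 without a filter on dim probes, and 0 to 12 with a replicate left out. With the array as a replicate block in a separate-channel fit 15 members were called. The glycolysis median ran from -0.26 to -0.086 with a replicate left out and was -0.34 without between-array normalization, and the cycle median was then -0.33. The Tpi1 sex difference turned to -0.0051 without between-array normalization. In the sex by genotype comparison the 31 items called became 0 with an offset of 16 and with processed signals, 223 with median centring and 66 without the filter. The 1 member called, Hk2, became 0 with an offset of 16, with processed signals, and with all 8 channels required, which leaves Hk2 untested. Leaving out a replicate was not run there, since no residual degree of freedom remains. The cause of these changes was not tested. Among named genes 329 values kept their side of the threshold, 60 lost it, 5 gained it and 1, the Tpi1 sex difference, changed sign. A change of sign with neither value past the threshold counts as kept, as for the Dlst sex difference. The kept values include all those of the genotype comparison, where no member was past the threshold in any run. Their number therefore does not measure how stable the calls were. All values that lost the threshold came from members called in the sex comparison and from Hk2. Signal over background limits Hk2, which lay above it in 6 of 8 samples.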

Other observations

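Of the 38 measured members, 9 had more than 1 kept probe. Gapdh, a gene often used as a reference, had 7, and their male minus female differences ran from -0.45 to -0.13, all lower in males, while their mutant to wild-type ratios ran from 0.04 to 0.14. The 3 Ogdh probes gave sex differences of 0.15 to 0.31 and genotype ratios from -0.0085 to 0.01. The 3 Gpi1 probes gave sex differences from -0.07 to 0.06 and genotype ratios from 0.02 to 0.06.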
